A study of Mus musculus with 3 samples.

Results

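MiR-221 and miR-222 are microRNAs (miRNAs) made from neighbouring hairpins, and each hairpin gives a mature form from its 5′ arm and one from its 3′ arm. The 4 mature forms, listed as mmu-miR-221-3p, mmu-miR-222-3p, mmu-miR-221-5p and mmu-miR-222-5p, were taken by name from the 1915 mature miRNAs that the files list. Small RNAs were sequenced from retinas of C57BL/6 mice (C57BL/6J in the study's methods) aged 1, 7 or 17 days (P1, P7 and P17), and no treatment is given in the labels. Each age is 1 library made from a pool of retinas from 5 eyes, so there were no replicates and no difference between ages could be tested against the spread between animals. The counts of all listed miRNAs summed to between 11426320 and 12759995 per library, which is taken here as the number of miRNA reads. In a whole retina, fewer cells of a type and less of a miRNA per cell cannot be told apart.

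A miRNA guides the Argonaute protein to messenger RNAs that pair with its seed, the bases from position 2 to 8, and lowers their output. MiR-221 and miR-222 are best known for repressing Cdkn1b, an inhibitor of the cell cycle, and Kit, the receptor of stem cell factor, which links them both to proliferation and to the restraint of vessel growth in endothelial cells. In mice the vessels of the retina grow after birth, while the last retinal neurons are still being formed.

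The mature sequences are shown because the shared seed is what makes miR-221-3p and miR-222-3p one family. They are given 5′ to 3′ from RefSeq (GRCm38.p6, the assembly of the mm10 build), with the seed in capitals.
miR-221-3p: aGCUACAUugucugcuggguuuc
miR-222-3p: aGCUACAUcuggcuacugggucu
miR-221-5p: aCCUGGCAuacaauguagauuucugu
The 3p forms had the same first 8 bases and then diverged, with 11 of 23 positions identical when they were laid side by side without gaps, so that a whole read of one is not a read of the other. MiR-221-5p carried a different seed. The sequence of miR-222-5p was not used here. Among 1679 mature names with a RefSeq sequence, the only other one with the GCUACAU seed was miR-1928, which had 0 reads at every age. No other name had the CCUGGCA seed of miR-221-5p. The GCUACAU reads of these libraries were therefore those of miR-221-3p and miR-222-3p, as far as the names with a sequence go.

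Both hairpins lie on the minus strand of the X chromosome. The miR-221 hairpin (gene Mir221, ENSMUSG00000065422) is at chrX:19146294-19146388 and the miR-222 hairpin (Mir222, ENSMUSG00000065471) at chrX:19146893-19146971, with 504 bases between them. Mature miR-221-3p comes from chrX:19146307-19146329, miR-221-5p from chrX:19146344-19146369 and miR-222-3p from chrX:19146901-19146923. No other gene or exon of the GENCODE annotation overlapped either hairpin, so the locus is intergenic in that annotation. The nearest annotated gene was Gm14636, a non-coding transcript on the same strand, 10010 bases away.

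MiR-221-3p, one of the seed-sharing forms, was read 810 times at P1, 562 times at P7 and 847 times at P17. Its level in RPM, the number of its reads among 1000000 miRNA reads of the library, was 70.9 at P1 (95% Wilson interval 66.2 to 75.9), 44.0 at P7 (40.6 to 47.8) and 72.6 at P17 (67.9 to 77.7). The P1 and P17 libraries thus gave overlapping intervals and the P7 library a lower one. These intervals hold the error of counting alone, because each age is 1 pooled library. They treat reads as separate molecules, and are too narrow where amplified copies of a molecule were counted.

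MiR-222-3p, which can pair with the same seed matches, was read 520, 398 and 424 times at P1, P7 and P17. These reads gave 45.5 RPM at P1 (41.8 to 49.6), a lower 31.2 RPM at P7 (28.3 to 34.4) and, in the P17 library, 36.4 RPM (33.1 to 40.0). It was highest at P1, and its intervals at P7 and P17 overlapped. The 3p forms together took 116.4, 75.2 and 109.0 RPM, which is 0.0116%, 0.00752% and 0.0109% of all miRNA reads.

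MiR-221-5p, the form from the other arm of the miR-221 hairpin, had 59, 66 and 62 reads. Its level was 5.16 RPM at P1 (4.0 to 6.66), then 5.17 (4.07 to 6.58) at P7 and 5.32 (4.15 to 6.82) at P17, so no difference between the ages was detectable at this depth. MiR-222-5p had only 16, 12 and 7 reads. Its level was 1.40 RPM at P1 (0.862 to 2.27), 0.940 RPM at P7 (0.538 to 1.64) and 0.60 RPM in the P17 library (0.291 to 1.24). Each value lay above the floor of 3 reads, which is 0.235 to 0.263 RPM. These intervals overlap at all ages.

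**Figure D1:**
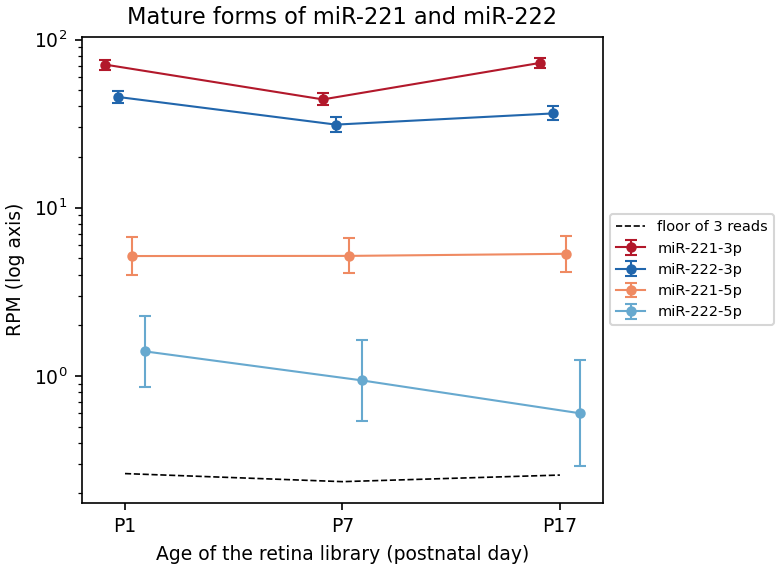
RPM on a log axis of the 4 mature forms in the P1, P7 and P17 libraries, with 95% Wilson intervals as bars and the floor of 3 reads as a dashed line. MiR-221-3p was lowest at P7 (44.0 RPM) and 70.9 RPM at P1 and 72.6 RPM at P17, and the order of the 4 forms was the same at each age.

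The order of the 4 forms was miR-221-3p, miR-222-3p, miR-221-5p and miR-222-5p in each library, and neighbouring forms had intervals that did not overlap at any age. Reads of different miRNAs were compared as counted, without a correction for length. Whether equal numbers of reads stand for equal numbers of RNAs was not tested. Among all miRNAs with reads in a library, miR-221-3p was in place 261 of 1169 at P1, 237 of 1047 at P7 and 210 of 1045 at P17. MiR-222-3p was in place 302, 268 and 264. Fewer miRNAs thus lay above both 3p forms at P7 than at P1, although their RPM was lower there.

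Changes with age were differences of log2(RPM + 1), a scale on which rare miRNAs appear to change less than they did. They were set beside those of 648 miRNAs whose mean RPM was 1 or more. MiR-222-5p, with a mean of 0.980 RPM, was just below that filter, and the other 3 forms passed it. On this scale none of the 4 changed over 2-fold between any pair of ages, but for miR-222-5p, at about 1 RPM, this depended on the pseudocount of 1 RPM. Without one it was 2.33-fold lower at P17 than at P1, from 7 and 16 reads. Among the 648 miRNAs 47.8% changed over 2-fold in either direction from P1 to P7, 25.6% from P7 to P17 and 57.3% from P1 to P17. Most were lower from P1 to P7 (290, with 20 higher) and from P1 to P17 (303, with 68 higher), but not from P7 to P17 (75, with 91 higher). With median-of-ratios size factors, a scaling that sets the typical change near 0, 72 were lower and 62 higher from P1 to P7. The steps share the P7 library and are given side by side.

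From P1 to P17, miR-221-3p changed by 0.03 on that scale and miR-221-5p by 0.04. Without a pseudocount the log2 ratio of miR-221-3p was 0.04 (exact 95% binomial interval -0.11 to 0.18) and that of miR-221-5p was 0.04 (-0.50 to 0.58). MiR-222-3p was lower at P17, with a change of -0.32 and a ratio without a pseudocount of -0.32 (-0.51 to -0.14). MiR-222-5p changed by -0.58, but the interval of its ratio, -1.22, ran from -2.75 to 0.14. In these libraries miR-221-3p thus took nearly the same share of the reads at P17 as at P1, and miR-222-3p a share 1.25-fold smaller.

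The 3p forms were lower in the P7 library than in the P1 library. From P1 to P7 the change was -0.67 for miR-221-3p, with a ratio without a pseudocount of -0.69 (-0.84 to -0.53), and -0.53 for miR-222-3p, with a ratio of -0.55 (-0.74 to -0.35). From P7 to P17 miR-221-3p changed by 0.71 (ratio 0.72, interval 0.57 to 0.88) and miR-222-3p by 0.21 (ratio 0.22, interval 0.02 to 0.42). This course, lower at P7 than at both other ages, was shared by 37.7% of the 648 miRNAs.

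These RPM changes are relative to the library total, and the median of all 648 miRNAs was -0.87 from P1 to P7, -0.05 from P7 to P17 and -0.91 from P1 to P17. Relative to that median, miR-221-3p was higher by 0.94, miR-222-3p by 0.59 and miR-221-5p by 0.95 at P17 than at P1. At P7 miR-221-3p was higher than at P1 by 0.19, miR-222-3p by 0.34 and miR-221-5p by 0.87 on this relative scale. MiR-221-3p was at percentile 74.2 of the 648 changes from P1 to P17, miR-222-3p at 66.2 and miR-221-5p at 74.4. With median-of-ratios size factors, which set the typical change near 0, the change from P1 to P17 was 1.06 for miR-221-3p, 0.70 for miR-222-3p and 0.90 for miR-221-5p. MiR-221-3p was then just over 2-fold higher, as were 25.5% of the 648 miRNAs under that scaling. The change of the 3p forms from P1 to P7 turned positive, to 0.27 for miR-221-3p and 0.40 for miR-222-3p. The lower level at P7 therefore holds for the share of reads only, whereas the higher level of miR-221-3p at P17 than at P7 held under both scalings (0.71 and 0.80). When the most abundant miRNAs were left out of the library total, the change from P7 to P17 was 0.47 for miR-221-3p, smaller but still positive. For miR-222-3p it was -0.02.

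**Figure D2:**
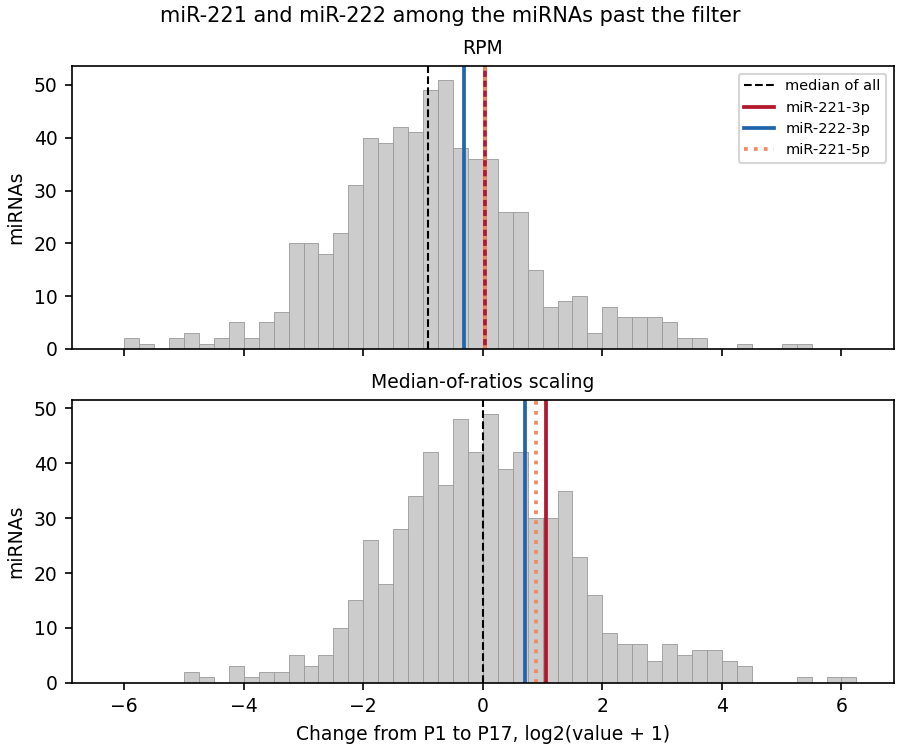
Histograms of the change from P1 to P17 of the 648 miRNAs past the filter, on the log2(value + 1) scale, with RPM above and median-of-ratios scaling below. Coloured lines mark miR-221-3p, miR-222-3p and miR-221-5p (dotted) and the dashed line the median of all. With RPM the lines of miR-221-3p (0.03) and miR-221-5p (0.04) coincide, and the 3 forms lie above the median under both scalings.

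Ratios of reads within a library do not depend on the scaling. The 3p arm was the major one of both hairpins at each age. The 5p arm took 6.79% of the miR-221 reads at P1 (exact 95% binomial interval 5.21 to 8.67, 869 reads), 10.5% at P7 (8.22 to 13.2, 628 reads) and 6.82% at P17 (5.27 to 8.66, 909 reads). The 5p share of miR-221 was thus higher in the P7 library than in the others. The log2 ratio of 5p to 3p reads changed by 0.69 from P1 to P7 (conditional 95% interval 0.13 to 1.25), by -0.68 from P7 to P17 (-1.23 to -0.13) and by 0.01 from P1 to P17 (-0.55 to 0.57). With RPM this shift at P7 came with a change of -0.67 for the 3p form and 0.00 for the 5p form from P1, and with median-of-ratios size factors with changes of 0.27 and 0.79.

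For miR-222 the 5p share was 2.99% at P1 (1.72 to 4.8), 2.93% at P7 (1.52 to 5.06) and 1.62% at P17 (0.655 to 3.32). Its 5p to 3p ratio changed by -0.03 from P1 to P7 (-1.26 to 1.16) and by -0.90 from P1 to P17 (-2.43 to 0.48), within counting error. For the 191 hairpins whose arms both passed the filter, the middle 90% of changes from P1 to P7 ran from -1.10 to 1.17, with a median of 0.13. The change of miR-221 was at percentile 83.2 of these, inside that range. From P1 to P17 the arms of only 3 of the 191 hairpins, miR-221 included, kept a ratio as close to that at P1, although the interval of miR-221 is wide.

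The balance between the seed-sharing forms was also different in the P17 library from that in the P1 and P7 libraries. There were 1.56 reads of miR-221-3p per read of miR-222-3p at P1, 1.41 at P7 and 2.00 at P17. MiR-221-3p made up 60.9% of the 3p reads at P1 (58.2 to 63.5), 58.5% at P7 (55.4 to 61.7) and 66.6% at P17 (64.0 to 69.2). The log2 ratio changed by -0.14 from P1 to P7 (-0.39 to 0.11), by 0.50 from P7 to P17 (0.24 to 0.76) and by 0.36 from P1 to P17 (0.12 to 0.60). The P17 library therefore held relatively more miR-221-3p, beyond the counting error of these libraries. These changes were not set beside those of other pairs of miRNAs from a shared locus. The 5p forms had 3.69, 5.50 and 8.86 reads of miR-221-5p per read of miR-222-5p, but with so few miR-222-5p reads the log2 change from P1 to P17, 1.26, had an interval from -0.23 to 2.88.

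**Figure D3:**
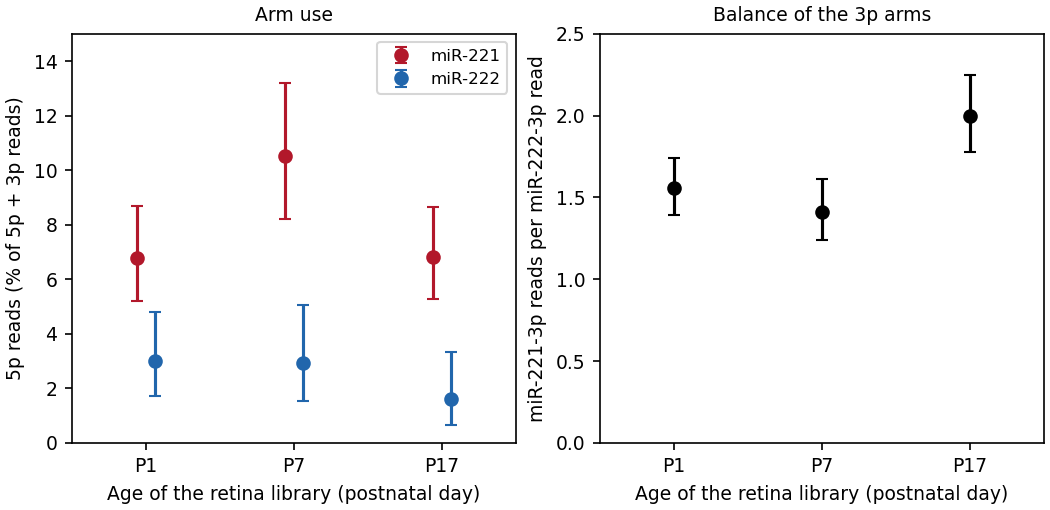
Left, 5p reads as a percentage of the 5p and 3p reads of miR-221 and miR-222 at P1, P7 and P17. Right, reads of miR-221-3p per read of miR-222-3p. Bars are exact 95% binomial intervals of 1 pooled library per age. The 5p share of miR-221 was 10.5% at P7 against 6.79% and 6.82%, and the ratio of the 3p forms was 2.00 at P17 against 1.56 and 1.41.

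To place the family among other miRNAs with a known part in vessels, a list of 20 mature forms was used, of which 19 passed the filter. Compared with P1, the P17 level in RPM was over 2-fold lower for 9 of the 19 and over 2-fold higher for 7, against 46.8% and 10.5% of all 648 miRNAs, and their median change was -0.72 against -0.91. The 3 others, within 2-fold like miR-221-3p, miR-222-3p and miR-221-5p, were miR-27a-3p (0.28), miR-27b-3p (-0.08) and miR-384-3p (-0.72). With median-of-ratios size factors 4 of the 19 were over 2-fold lower and 8 were higher by as much, against 23.9% and 25.5% of all.

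MiR-126a, which endothelial cells express from the Egfl7 gene, was over 2-fold higher at each step, like 3.09% of the 648 miRNAs at the first step and 14% at the second. The reads of miR-126a-3p were 13994, 45262 and 96661 in the P1, P7 and P17 libraries, a change of 2.76 from P1 to P17, and miR-126a-5p changed by 2.69. For each read of miR-221-3p there were 17.3 reads of miR-126a-3p in the P1 library, 80.5 at P7 and 114.1 at P17, and for each read of miR-222-3p there were 26.9, 113.7 and 228.0. The log2 ratio of miR-221-3p to miR-126a-3p changed by -2.72 from P1 to P17 (conditional 95% interval -2.87 to -2.58), of which -2.22 fell between P1 and P7. The share of the family relative to this endothelial miRNA was therefore lower at P7 and lower still at P17, independently of the scaling.

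MiR-143 and miR-145a, typical of smooth muscle cells and pericytes, the mural cells of vessels, were also higher at P17. The change from P1 to P17 was 2.92 for miR-143-3p and 3.04 for miR-145a-5p. There were 2.67, 8.25 and 19.8 reads of miR-143-3p per read of miR-221-3p at P1, P7 and P17. The log2 ratio of miR-221-3p to miR-143-3p changed by -2.89 from P1 to P17 (-3.05 to -2.73).

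The miR-17-92 cluster, whose members the study says may act on vessel growth in ways that depend on context, was lower at P17. The study reports that added miR-18a-5p, one of its forms, reduced the proliferation of cultured retinal endothelial cells. Its 6 forms on the list changed by -5.97 to -1.27 with RPM and by -4.93 to -0.22 with median-of-ratios size factors. MiR-17-5p had 32.5 reads per read of miR-221-3p at P1, 13.8 at P7 and 0.543 at P17. MiR-221-3p thus had fewer reads than miR-17-5p at P1 and P7 and more at P17. The log2 ratio of miR-221-3p to miR-17-5p changed by 5.90 (5.71 to 6.10). The changes of miR-221-3p, miR-222-3p and miR-221-5p from P1 to P17 thus lay between the endothelial and mural forms and the miR-17-92 forms. This order held under both scalings. The nearest cluster form with RPM was miR-19b-3p, at -1.27 against -0.32 for miR-222-3p. With median-of-ratios size factors these 2 forms were at -0.22 and 0.70. Of the cluster, only miR-17-5p was compared as a ratio within a library. Of the remaining forms past the filter that lay outside 2-fold, miR-155-5p (-1.25), miR-342-3p (-1.31) and the hypoxia-responsive miR-210-3p (-1.83) were lower, and miR-132-3p (2.13), miR-184-3p (2.49) and miR-150-5p (3.62) were higher. With median-of-ratios size factors the lower 3 were within 2-fold (-0.27, -0.27 and -0.79) and the higher 3 were still over 2-fold higher. MiR-223-3p, the form that missed the filter, had 2, 3 and 7 reads.

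**Figure D4:**
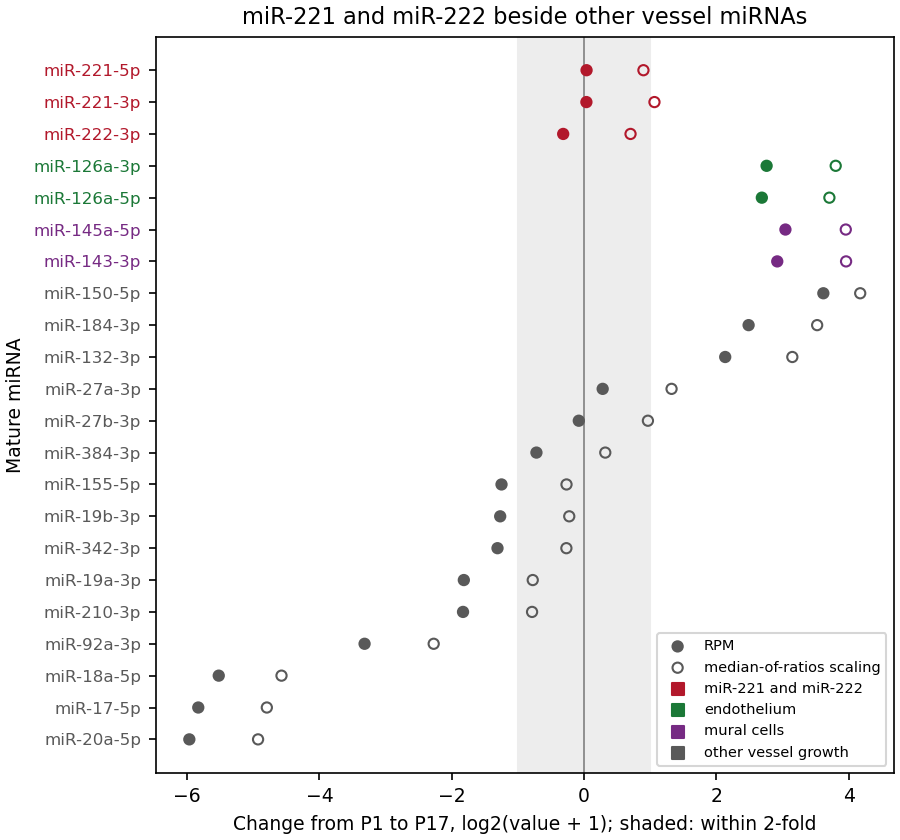
Change from P1 to P17 on the log2(value + 1) scale of miR-221-3p, miR-222-3p and miR-221-5p and of the 19 forms of the vessel list past the filter, with RPM as filled and median-of-ratios scaling as open points, and changes within 2-fold shaded. With RPM the miR-221 and miR-222 forms lie between -0.32 and 0.04, the endothelial and mural forms between 2.69 and 3.04 and the miR-17-92 forms between -5.97 and -1.27.

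Other miRNAs with a similar course were sought by the distance between their steps and those of each form, over 3 libraries and 648 miRNAs. Nearest to miR-221-3p were miR-3085-3p (distance 0.07), miR-127-3p (0.09) and miR-136-3p (0.10). Nearest to miR-222-3p were miR-30c-2-3p (0.05), miR-30e-3p (0.06) and miR-3076-3p (0.09), the last with only 11 to 21 reads. Nearest to miR-221-5p were miR-215-5p (0.04, with only 16 to 18 reads), miR-181b-5p (0.10) and miR-1291 (0.11). The log2 ratios of miR-221-5p itself had intervals of -0.53 to 0.53 from P1 to P7 and -0.48 to 0.56 from P7 to P17. These are wider than the distances, so the counts do not settle which miRNAs are nearest to it. The same holds for the 3p forms. The intervals at the first and second step were -0.84 to -0.53 and 0.57 to 0.88 for miR-221-3p. For miR-222-3p they were -0.74 to -0.35 and 0.02 to 0.42. MiR-222-3p itself was in place 85 among the neighbours of miR-221-3p, at a distance of 0.51, and miR-221-5p in place 229, at 0.96.

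The tissue was checked by miRNAs typical of retina and of cells that could be carried along. MiR-183-5p, miR-182-5p, miR-96-5p, miR-124-3p and miR-9-5p, abundant in retina, together took 223656, 432211 and 387928 RPM at P1, P7 and P17. RPM is a share of the reads, so a larger part taken by these forms leaves a smaller one for all others. From P1 to P17 miR-9-5p changed by -0.96 and the other 4 by 1.78 to 3.05. The 4 blood cell forms, miR-451a, miR-144-3p, miR-142a-3p and miR-142a-5p, summed to 59.5, 28.5 and 49.8 RPM at P1, P7 and P17, and were therefore lowest in the P7 library, like the 3p forms. This came from miR-451a alone (45.5, 11.7 and 27.9 RPM). The likeness holds for RPM only. With median-of-ratios size factors miR-451a changed by -0.95 from P1 to P7, and miR-221-3p and miR-222-3p by 0.27 and 0.40. MiR-144-3p, which red cells also express, was at 1.14, 1.18 and 4.46 RPM, and the forms of miR-142a, found in white cells, were no lower at P7 than at P1 (6.91 and 8.46 RPM for miR-142a-3p). The 2 forms listed for the pigment epithelium, miR-204-5p and miR-211-5p, were both lowest in RPM at P7 but differed at P17. With median-of-ratios size factors they changed by -0.11 and -0.13 from P1 to P7. Which cells gave their reads was not tested. MiR-204-5p was at 14661, 6967 and 9019 RPM and miR-211-5p at 549.7, 258.6 and 5315 RPM. The 3 muscle forms summed to 132.4, 90.0 and 240.1 RPM, mostly from miR-1a-3p (111.8, 65.1 and 217.2 RPM), whereas miR-206-3p was highest at P7 (15.8, 22.7 and 16.9 RPM). MiR-122-5p of liver was at 5.78, 2.27 and 3.60 RPM. None of these 10 forms was at 0 in any library, and their part in the levels of miR-221-3p and miR-222-3p was not tested.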

How the data were processed

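Small RNA libraries were made from pooled retinas, 1 per age. The authors trimmed adaptors, discarded reads of low quality and mapped the rest to mm10 with HISAT2, whereas the submitters' processing notes name FastQC and BWA. The rule for counting miRNAs is not given in the sources used here. Some names had the same change from P1 to P17, such as miR-199a-3p and miR-199b-3p (both -0.51). Reads may thus be counted under several names, and the library totals and the miRNAs past the filter may hold repeats. The deposited counts are raw reads per mature miRNA, and the deposited RPM values equal each count scaled to 1000000 miRNA reads in its library, to within 0.0192 RPM. A change in a few abundant miRNAs therefore moves the RPM of all others.

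The deposited RPM values were used with a pseudocount of 1 RPM and a filter of a mean of at least 1 RPM. With 1 library per age no test was run. Wilson intervals are given for levels, exact binomial intervals for ratios and conditional odds ratio intervals for changes of a ratio, all at 95%. For the comparison with other hairpins 0.5 was added to each count. Alternatives were median-of-ratios size factors (P1 1.59, P7 0.817, P17 0.770, from 644 miRNAs), TMM factors, a reduced library total, other pseudocounts, filters and folds, and 0.5 added to the counts of ratios. The members and lists were chosen with earlier results of these data known. The miRNAs named were the 4 members, those with their seeds, the lists and the 3 nearest courses, and the ratios to miR-126a-3p, miR-143-3p and miR-17-5p were chosen after their values were seen. The scalings and the binomial interval of a ratio between libraries were tested on simulated data with set changes from P1 to P17. Arm ratios, conditional intervals, the comparison of hairpins and the nearest courses were not part of that test. Python 3.11.15, scipy 1.17.1, pandas 2.3.3, R 4.3.3 and edgeR 4.0.16 were used.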

Additional observations from a re-analysis of the deposited data

How the results depend on the processing

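The scaling moved the changes of 3 of the 4 forms from P1 to P17 beyond counting error. Each scaling divides all miRNAs of a library by the same factor, so such a move is not particular to these forms. Why the factors differ between the libraries was not tested. With median-of-ratios size factors miR-221-3p changed by 1.06, miR-222-3p by 0.70 and miR-221-5p by 0.90, against 0.03, -0.32 and 0.04 with RPM. TMM factors gave 1.07, 0.70 and 0.90. When the 10 top miRNAs of each library (13 in all) were left out of the total, miR-221-3p changed by 0.41 and miR-222-3p by 0.054. The direction for miR-222-3p from P1 to P17 thus depended on the scaling. MiR-222-5p stayed within its wide counting error of -0.58 under all of them, although no pseudocount gave -1.22 and one of 0.1 RPM -1.10, past 2-fold. Also within counting error was each ratio of arms and of the 3p forms with 0.5 added to the counts. For the vessel list, the median of -0.72 became 0.32 with median-of-ratios and 0.32 with TMM factors, -0.34 with the reduced total, -0.40 with no filter and -0.98 with a filter of 10 RPM. Counts over 2-fold, 303 of lower and 68 of higher miRNAs, became 155 and 165 with median-of-ratios and 155 and 165 with TMM factors, and 141 and 38 at a fold of 4. At the steps before and after P7, 10 of 48 alternative values for the 4 forms moved beyond counting error. With the reduced total the change from P7 to P17 was 0.47 for miR-221-3p, against 0.71, and -0.02 for miR-222-3p, against 0.21. A ratio with no pseudocount was added after seeing the data. Depth limits miR-222-5p, with 7 to 16 reads. No paired analysis was possible because only 1 library was made for an age.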
